A study of Mus musculus with 18 samples.

Results

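Genes of the acute phase response and of reactive astrocytes, 10 in all, were followed in the hypothalamus of hypertensive and normotensive mice: *Lcn2*, *Serpina3n*, *C4b*, *Timp1*, *Il1b*, *Stat3*, *Socs3*, *Gfap*, *Vim* and *Cd44*. They were found by gene symbol in the platform annotation. All 10 were measured, among 19937 genes with a probeset of their own, by 11 of the 34760 probesets (*Socs3* has 2). BPH/2J mice are the Schlager strain bred for high blood pressure (BP), and BPN/3J mice are its normotensive control strain. All 18 mice were male, with 1 mouse per array and no treatment or engineered allele in either strain by the labels. The ‘peak’ BP mice, 6 BPH/2J and 6 BPN/3J, were 26 weeks old and were killed in the active period. The ‘trough’ BP mice, 3 of each strain, were killed in the inactive period at 18 weeks by the sample labels and 19 weeks by the series text. Age and time of day therefore differed together and cannot be told apart. The labels and the series text name the hypothalamus, while the paper describes removal of the paraventricular and dorsomedial regions. A strain label of the BPN/3J ‘trough’ mice reads BPH/2J, against their titles, which were followed.

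Astrocytes respond to injury and inflammation by raising intermediate filament proteins, protease inhibitors and complement, and the cytokines interleukin 6 and interleukin 1 are among the signals that drive this. Interleukin 6 acts through the transcription factor STAT3, which induces its own inhibitor SOCS3, and interleukin 1 acts through NF-kB. The liver uses the same pathways to produce the acute phase proteins of the blood. In the healthy hypothalamus GFAP is made by astrocytes, while vimentin is also found in tanycytes, in ependymal cells and in the cells of vessels and meninges. The 14 measured markers of hypothalamic neurons ran from percentile 49.8 (*Crh*) to 99.5 (*Pmch*) of mean signal over all probesets. The lateral hypothalamic peptide genes *Pmch* and *Hcrt* had mean log2 signals of 12.1 and 9.32, while *Sim1* and *Nkx2-1* lay at percentiles 58.1 and 52.2.

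Promoter sequence was available for 9 of the 10 genes in RefSeq (GRCm38.p6), and for *C4b* it was not used here. The 9 promoters, of 250 bases before to 50 bases after the start site, were searched on both strands for a STAT motif (TTCNNNGAA), an AP-1 motif (TGANTCA) and an NF-kB motif. The STAT motif lies in 2 of them, against 8.3% of 32851 promoters, the NF-kB motif in 1, against 4.51%, and the AP-1 motif in 0, against 7.81%. A match describes the letters and is no evidence of binding. The windows of *Socs3* and *Gfap* with the STAT motif, and of *Vim* with the NF-kB motif, are shown with the motif in capitals and each on the strand of its gene (the NF-kB motif reads on the opposite strand). The *Socs3* window is chr11:117969467-117969566, minus strand, bases -200 to -101 from the start site. The *Gfap* window is chr11:102897191-102897290, minus strand, and runs from base -90 into the first 10 bases of the transcript. The *Vim* window is chr2:13574061-13574160, plus strand, bases -250 to -151.
Socs3: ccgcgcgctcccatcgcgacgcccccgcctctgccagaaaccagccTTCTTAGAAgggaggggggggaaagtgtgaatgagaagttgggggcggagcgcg
Gfap: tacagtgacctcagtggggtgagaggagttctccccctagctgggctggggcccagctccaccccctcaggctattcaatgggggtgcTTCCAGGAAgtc
Vim: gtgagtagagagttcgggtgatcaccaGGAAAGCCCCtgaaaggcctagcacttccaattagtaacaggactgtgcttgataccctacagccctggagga

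The last 100 bases before the start site are shown for *Serpina3n*, which differed between the strains, and for *Stat3* and *Cd44*, the pair that moved together most closely between mice. They are chr12:104406608-104406707 on the plus strand for *Serpina3n*, and chr11:100939541-100939640 and chr2:102901666-102901765 on the minus strand for *Stat3* and *Cd44*. None of the 3 motifs occurs in the searched promoters of these 3 genes.
Serpina3n: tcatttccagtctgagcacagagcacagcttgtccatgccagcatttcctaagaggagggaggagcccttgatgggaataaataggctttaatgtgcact
Stat3: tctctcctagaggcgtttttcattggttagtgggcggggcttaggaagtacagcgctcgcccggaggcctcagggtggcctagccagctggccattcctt
Cd44: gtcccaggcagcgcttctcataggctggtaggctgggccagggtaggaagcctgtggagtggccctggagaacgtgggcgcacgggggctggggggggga

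The values are log2 signals after the robust multi-array average (RMA) normalization made by the authors, and a difference of 1 on this scale is a factor of 2. The median signal per array ran from 6.17 to 6.42. The arrays of BPN/3J ‘peak’ mouse 11 and BPN/3J ‘trough’ mouse 1 correlated least with the others, with mean r of 0.963 and 0.968. *Lcn2*, *Timp1* and *Il1b* lay under the 40th percentile of mean signal over all probesets, at percentiles 38.6, 29.1 and 32.0. *Serpina3n* and *Vim* lay at percentiles 87.3 and 89.1. *Gfap* had the largest spread of the 10 genes within groups, with a pooled SD of 0.47 that exceeded the SD of 91.0% of all probesets. *Stat3* had the smallest, with an SD of 0.10 at percentile 6.54. In tissue of this kind fewer cells of a type and less RNA per cell cannot be told apart.

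**Figure D1:**
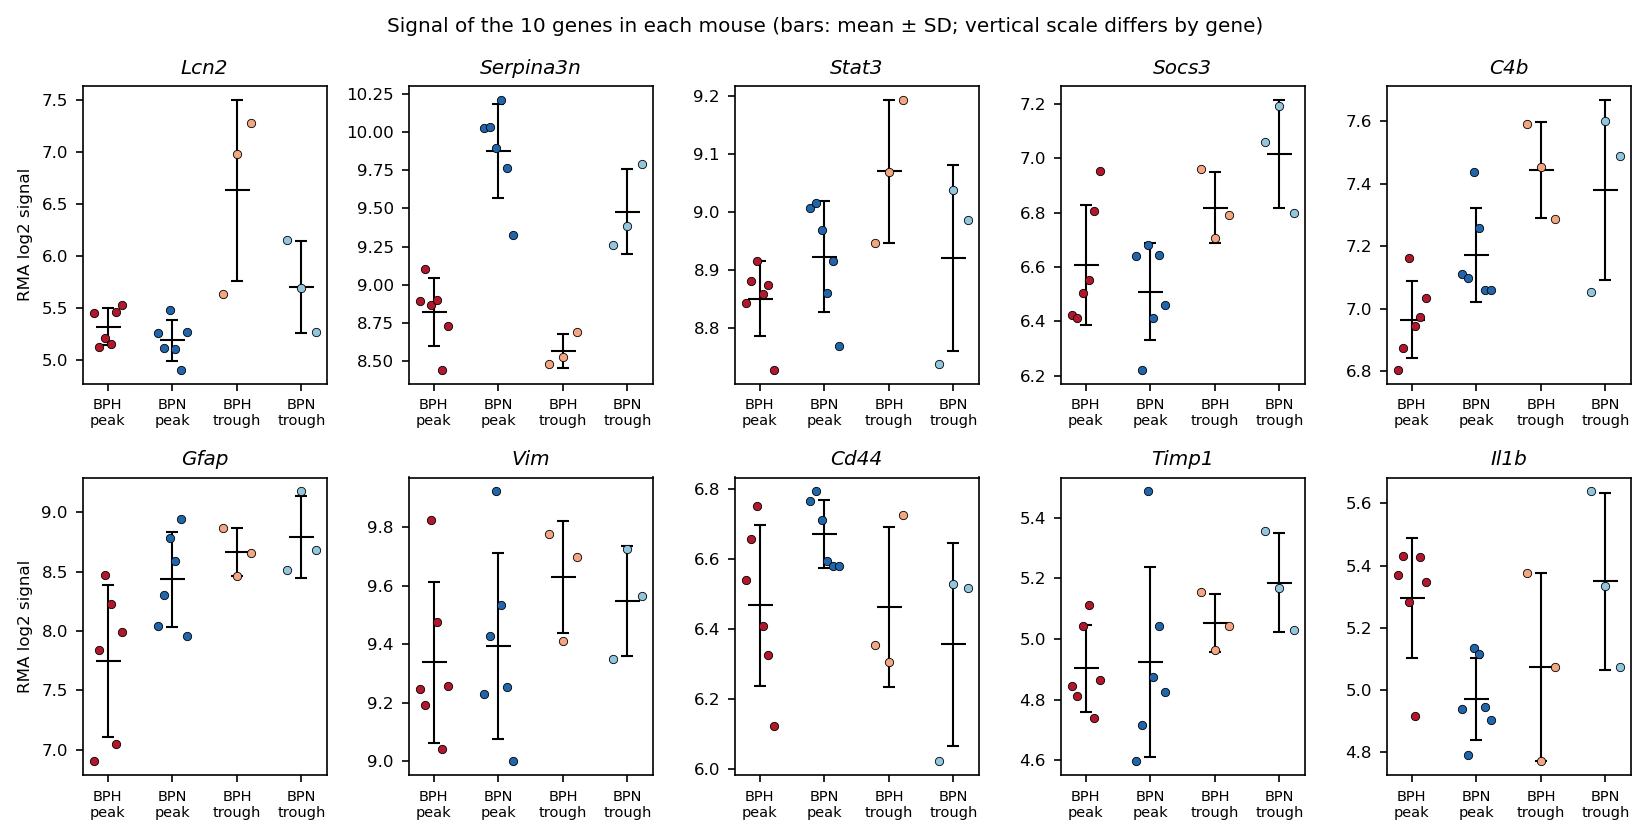
RMA log2 signal of each gene (vertical axes, with a range of their own) in every mouse of the 4 groups, with the mean and SD as bars and *Socs3* at its brighter probeset. *Serpina3n* separates the strains at both times, from 8.44 to 9.10 in BPH/2J against 9.26 to 10.21 in BPN/3J over both times, and the 3 ‘trough’ mice of BPH/2J spread most in *Lcn2*, between 5.63 and 7.27.

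Each gene was compared between the strains at each time and between the times in each strain. The strain difference at ‘peak’ minus the strain difference at ‘trough’, called *d* here, was also tested. The limma fit covered all 34760 probesets, with Benjamini-Hochberg adjustment, and an adjusted p under 0.05 was taken as passing. Between the strains at ‘peak’ 1 of the 10 genes passed, against 1.33% of all probesets, and at ‘trough’ 1 passed, against 0.529%. Between the times 2 genes passed in BPH/2J, against 8.64%, and 1 in BPN/3J, against 25.3%, so that the share in BPN/3J lay below the background. For *d* 0 genes and 0% of all probesets passed with limma, while 2 genes (*Lcn2* and *Il1b*) had an unadjusted p under 0.05, as had 8.31% of all probesets. In the other 4 comparisons, in the same order, 3, 2, 4 and 4 genes had an unadjusted p under 0.05, against 9.93%, 10.4%, 23.1% and 39.9% of all probesets. All 5 calls were of lower signal in BPH/2J or at ‘peak’. Calls of lower signal made up 0.713%, 0.187%, 4.39% and 12.4% of all probesets in these comparisons, and calls of higher signal 0.616%, 0.342%, 4.25% and 12.9%. The comparisons share groups of mice and are not independent of each other.

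The median difference over the 10 genes was -0.06 between the strains at ‘peak’ and -0.03 at ‘trough’, beside medians of -0.01 and 0.00 over all probesets. It was -0.22 between the times in BPH/2J and -0.24 in BPN/3J, beside -0.02 and -0.01 over all probesets. In either strain the difference ‘peak’ minus ‘trough’ was negative in 7 of the 10 genes. The positive genes were *Serpina3n*, *Cd44* and *Il1b* in BPH/2J and *Serpina3n*, *Stat3* and *Cd44* in BPN/3J.

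**Figure D2:**
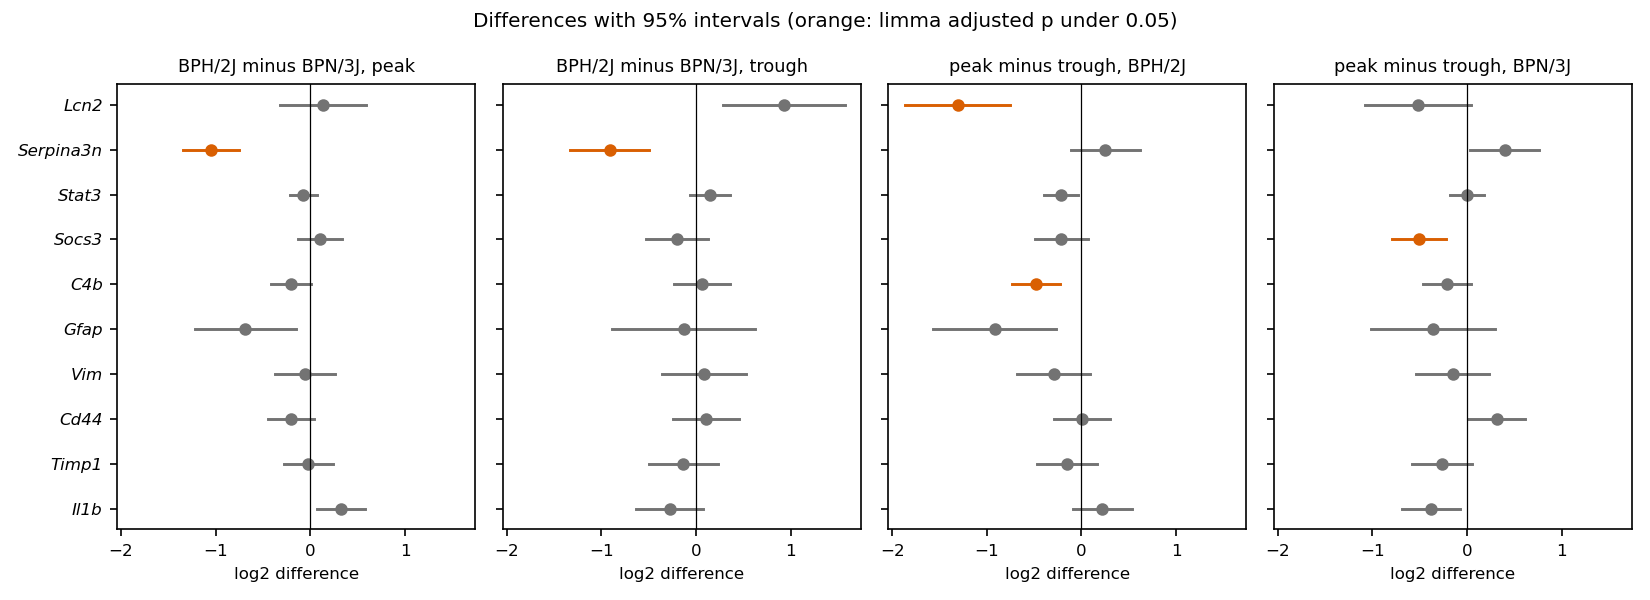
Log2 difference of each gene (horizontal axis) in the 4 simple comparisons, with 95% intervals from the limma fit. Orange points passed at an adjusted p under 0.05, and they are *Serpina3n* in both comparisons of the strains, *Lcn2* and *C4b* between the times in BPH/2J and *Socs3* between the times in BPN/3J.

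Of the secreted acute phase proteins, *Serpina3n* (probeset 10398075) stood apart. It encodes a serine protease inhibitor that reactive astrocytes release. The BPH/2J ‘peak’ mice had signals from 8.44 to 9.10 with a median of 8.88, and the BPN/3J ‘peak’ mice had 9.33 to 10.21 with a median of 9.96. At ‘trough’ the BPH/2J mice had 8.49, 8.53 and 8.69, and the BPN/3J mice had 9.26, 9.38 and 9.79. Every BPH/2J mouse lay below every BPN/3J mouse at the same time, and in either direction the strains did not overlap in 1.57% of all probesets at ‘peak’ and 19.9% at ‘trough’. *Serpina3n* was thus 2.07-fold lower in BPH/2J at ‘peak’ (log2 difference -1.05, SE 0.14, limma adjusted p = 0.000249) and 1.88-fold lower at ‘trough’ (-0.91, SE 0.20, limma adjusted p = 0.0490). The exact 2-sided permutation p was 0.00216 at ‘peak’, the smallest that 6 against 6 mice allow, and 0.10 at ‘trough’, the smallest for 3 against 3.

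The strain difference of *Serpina3n* at ‘peak’ passed in all 18 fits that left out 1 mouse, with limma adjusted p from 2.01e-05 to 0.00104. The difference at ‘trough’ passed in 3 of those 18 fits (those without mouse 8 of the BPH/2J ‘peak’ group, or without mouse 8 or 11 of the BPN/3J ‘peak’ group), with values from -1.02 to -0.75 and adjusted p up to 0.20. It was also lost with each array centred on its median (-0.84, limma adjusted p = 0.196) and with only the ‘trough’ mice in the fit (adjusted p = 0.126). The difference *d* was -0.14 (SE 0.24), with a 95% interval from -0.65 to 0.37. Between the times *Serpina3n* differed by 0.25 (SE 0.17) in BPH/2J and by 0.40 (SE 0.17) in BPN/3J, with limma adjusted p = 0.407 and 0.0940. The neighbouring family members *Serpina3a* and *Serpina3b*, whose sequences resemble it, had group means of 4.59 to 4.90 and did not pass in any comparison. They were the only other *Serpina3* genes with a probeset of their own, and further *Serpina3* genes were not examined.

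*Lcn2* (probeset 10481627) encodes lipocalin 2, an iron-binding protein made by astrocytes, vessels and white blood cells in inflammation. In the ‘peak’ mice it ran from 5.12 to 5.52 in BPH/2J (median 5.33) and from 4.90 to 5.48 in BPN/3J (median 5.18). The BPH/2J ‘trough’ mice had 5.63, 6.98 and 7.27, and the BPN/3J ‘trough’ mice had 6.15, 5.69 and 5.26. All BPH/2J ‘trough’ mice lay above all BPH/2J ‘peak’ mice, as in 17.7% of all probesets between these groups in either direction, and mice 2 and 3 were more than 1 log2 unit above mouse 1. *Lcn2* fell 2.48-fold from ‘trough’ to ‘peak’ in BPH/2J (log2 difference -1.31, SE 0.26, limma adjusted p = 0.00603), and 0.193% of all probesets had a larger difference in size. Without BPH/2J ‘trough’ mouse 3 the difference was -0.99 (limma adjusted p = 0.0526).

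In BPN/3J the difference of *Lcn2* between the times was -0.51 (SE 0.26, limma adjusted p = 0.156). Between the strains at ‘trough’ it was 0.93 (SE 0.31, limma adjusted p = 0.296), with overlapping mice. Without BPH/2J ‘trough’ mouse 1 this strain difference was 1.42 (limma adjusted p = 0.00459), and the difference between the times in BPN/3J had an adjusted p of 0.0370. The difference *d* was -0.79 (SE 0.37), with a limma adjusted p of 0.597. The 9 measured neutrophil and monocyte markers all lay at percentiles 8.47 to 37.5 of mean signal. Their mean deviation from the overall level lay between 0.04 and 0.08 at ‘trough’ and between -0.21 and 0.11 at ‘peak’ in BPH/2J.

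*C4b* (probeset 10450242) encodes complement component 4, which is deposited on targets after activation of complement. It ran from 6.80 to 7.16 in BPH/2J (median 6.96) and from 7.06 to 7.44 in BPN/3J (median 7.11) at ‘peak’. At ‘trough’ the BPH/2J mice had 7.59, 7.45 and 7.29 and the BPN/3J mice 7.05, 7.60 and 7.49. The BPH/2J mice did not overlap between the times, as in 17.7% of all probesets in either direction. *C4b* fell 1.39-fold from ‘trough’ to ‘peak’ in BPH/2J (log2 difference -0.48, SE 0.12, limma adjusted p = 0.0214). This call was lost without BPH/2J ‘trough’ mouse 1 or 2 (limma adjusted p = 0.142 and 0.0769) and with each array centred on its median (adjusted p = 0.0633). The difference was -0.21 (SE 0.12) in BPN/3J and, between the strains at ‘peak’, also -0.21 (SE 0.10), with limma adjusted p = 0.205 and 0.516. *C4a*, a near-identical copy, was 0.49 lower in BPH/2J at ‘peak’ on the log2 scale (SE 0.10, limma adjusted p = 0.00992), and signal of the 2 genes may be shared between their probesets.

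*Timp1* (probeset 10598976), an inhibitor of matrix metalloproteases, did not pass in any comparison. At ‘peak’ the BPH/2J mice had signals between 4.74 and 5.11 and the BPN/3J mice between 4.60 and 5.49, both with a median of 4.85. The ‘trough’ mice lay within the limits of the BPN/3J ‘peak’ mice, with 5.15, 4.96 and 5.04 in BPH/2J and 5.36, 5.17 and 5.03 in BPN/3J. The difference between the times in BPN/3J was -0.26 (SE 0.15, limma adjusted p = 0.202). Without BPN/3J ‘peak’ mouse 7, which had the highest *Timp1* signal of all mice, it was -0.38 (limma adjusted p = 0.0255).

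*Il1b* (probeset 10487597) encodes interleukin 1 beta, the cytokine that microglia and other myeloid cells release. It ran from 4.92 to 5.43 in BPH/2J (median 5.36) and from 4.79 to 5.13 in BPN/3J (median 4.94) at ‘peak’. At ‘trough’ the BPH/2J mice had 5.38, 4.77 and 5.07, and the BPN/3J mice had 5.64, 5.33 and 5.07. At ‘peak’ 5 of the 6 BPH/2J mice lay above all BPN/3J mice, and mouse 7 lay among them. The strain difference was 0.33 (SE 0.12) at ‘peak’ and -0.28 (SE 0.17) at ‘trough’, with limma adjusted p = 0.294 and 0.581, and the 2-sided exact permutation p at ‘peak’ was 0.0130. Between the times *Il1b* differed by 0.22 (SE 0.15) in BPH/2J and by -0.38 (SE 0.15) in BPN/3J, with limma adjusted p = 0.390 and 0.0634. These opposite signs gave the smallest unadjusted p for *d* of the 10 genes (limma, 0.00941), with an adjusted p of 0.589.

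Of the signalling genes, *Stat3* (probeset 10391301) had narrow ranges. The BPH/2J ‘peak’ mice had 8.73 to 8.91 with a median of 8.87, and the BPN/3J ‘peak’ mice had 8.77 to 9.02 with a median of 8.94. At ‘trough’ the signals were 8.95, 9.07 and 9.19 in BPH/2J and 8.74, 9.04 and 8.99 in BPN/3J. In BPH/2J the times did not overlap, as in 17.7% of all probesets in either direction. The difference was -0.22 (SE 0.08), at the smallest exact 2-sided permutation p that 6 against 3 mice allow (0.0238). It did not pass over all probesets (limma adjusted p = 0.121). The difference *d* of *Stat3* was -0.22 (SE 0.12), with a 95% interval from -0.47 to 0.03.

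*Socs3*, the inhibitor that STAT3 induces, was measured by probesets 10393449 and 10383010. At the brighter probeset (10393449) it ran from 6.41 to 6.95 in BPH/2J (median 6.53) and from 6.22 to 6.68 in BPN/3J (median 6.55) at ‘peak’. The ‘trough’ mice had 6.96, 6.71 and 6.79 in BPH/2J and 7.06, 7.19 and 6.80 in BPN/3J. All BPN/3J ‘trough’ mice lay above all BPN/3J ‘peak’ mice, as in 20.8% of all probesets in either direction. *Socs3* fell 1.42-fold from ‘trough’ to ‘peak’ in BPN/3J (log2 difference -0.51, SE 0.13, limma adjusted p = 0.0136). The call was lost without BPN/3J ‘trough’ mouse 1 (limma adjusted p = 0.0603) or mouse 3 (0.0802), and without the least correlated arrays named above (-0.47, adjusted p = 0.0711). The second probeset gave -0.38 (limma adjusted p = 0.0556), and its mice did not overlap either. In BPH/2J the difference at the brighter probeset was -0.21 (SE 0.13, limma adjusted p = 0.378). Markers of several cell types differed between the same BPN/3J groups: of 105 markers 12 fell and 6 rose, or 17.1%, against 25.3% of all probesets. The meningeal gene *Col1a1* (-0.81), the neutrophil gene *S100a8* (-0.54, at percentile 24.1 of mean signal) and the mural cell gene *Cspg4* (-0.43) were among those that fell. The endothelial genes *Slco1a4* (1.10) and *Emcn* (0.76) and the oligodendrocyte gene *Opalin* (0.68) were among those that rose. Directions were mixed within lists: the endothelial gene *Cldn5* fell (-0.40) and the mural cell gene *Rgs5* rose (0.34). Of 11 endothelial markers 5 differences were positive and 6 negative, and of 8 oligodendrocyte markers 3 and 5. The part of these markers in the difference of *Socs3* was not tested.

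Of the structural and adhesion genes, *Gfap* (probeset 10391798) encodes the intermediate filament protein that defines reactive astrocytes. The BPH/2J ‘peak’ mice ran from 6.90 to 8.48 with a median of 7.92, and the BPN/3J ‘peak’ mice from 7.96 to 8.94 with a median of 8.45. The ‘trough’ mice had 8.87, 8.46 and 8.66 in BPH/2J and 8.52, 9.18 and 8.69 in BPN/3J. The lowest signals, 6.90 and 7.05, belonged to BPH/2J ‘peak’ mice 4 and 8. The strain difference at ‘peak’ was -0.69 (SE 0.25, limma adjusted p = 0.299), with an exact 2-sided permutation p of 0.0498.

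Between the times *Gfap* differed by -0.92 (SE 0.31) in BPH/2J and by -0.36 (SE 0.31) in BPN/3J, with limma adjusted p = 0.0764 and 0.404. In BPH/2J 1.07% of all probesets had a larger difference between the times in size. The difference passed there without BPH/2J ‘peak’ mouse 6 (limma adjusted p = 0.0370), with probesets of low signal left out (0.0455) and in a fit over genes (0.0433). The difference *d* of *Gfap* was -0.56 (SE 0.44), with a 95% interval from -1.48 to 0.37.

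*Vim* (probeset 10469322), the gene of the intermediate filament protein vimentin, did not pass in any comparison. It ran from 9.04 to 9.82 in BPH/2J (median 9.25) and from 9.0 to 9.92 in BPN/3J (median 9.34) at ‘peak’, and all ‘trough’ mice lay between 9.35 and 9.78. The difference between the times in BPH/2J was -0.29 (SE 0.18, limma adjusted p = 0.369). *Cd44* (probeset 10485405), the receptor for hyaluronan, did not pass either. It ran from 6.12 to 6.75 in BPH/2J (median 6.47) and from 6.58 to 6.79 in BPN/3J (median 6.65) at ‘peak’. The ‘trough’ signals were 6.36, 6.31 and 6.73 in BPH/2J and 6.02, 6.53 and 6.52 in BPN/3J. All BPN/3J ‘trough’ mice lay below all BPN/3J ‘peak’ mice, and 20.8% of all probesets did not overlap between these groups in either direction. The difference was 0.32 (SE 0.14, limma adjusted p = 0.107). Between the strains at ‘peak’ *Cd44* differed by -0.20 (SE 0.12, limma adjusted p = 0.618).

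The pathways around these genes were read from lists of their other members. Of 26 other reactive astrocyte genes, 1 passed as higher in BPH/2J at ‘peak’, *Fbln5*, a protein of elastic fibres (0.70, SE 0.15, limma adjusted p = 0.0207), and 0 passed at ‘trough’ (4 had an unadjusted p under 0.05). Between the times 2 passed in BPH/2J (7.69%, against 8.64% of all probesets), both lower at ‘peak’: *Aspg* (-0.52) and *Nes*, the intermediate filament protein nestin (-0.41). In BPN/3J 5 passed (19.2%, against 25.3%). *Srgn* (0.67) and *S100a10* (0.42) were higher at ‘peak’, and *Sphk1* (-0.48), the small heat shock protein gene *Hspb1* (-0.42) and *Slc10a6* (-0.40) were lower. *Slc10a6* had a low signal, at percentile 25.0 of mean signal. The list had a median difference of -0.15 between the times in BPH/2J, and of -0.03 in BPN/3J, beside -0.02 and -0.01 over all probesets.

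Of 24 other acute phase genes, 0 passed between the strains at either time or between the times in BPH/2J (limma, with 2, 5 and 4 at an unadjusted p under 0.05). In BPN/3J 4 fell from ‘trough’ to ‘peak’ (16.7%, against 25.3% of all probesets called and 12.4% called lower). They were *Hamp* (-0.79), the gene of a hormone that limits iron uptake, *Pzp* (-0.45), the complement gene *Cfb* (-0.38) and *Crp* (-0.34). Their signals were low: *Hamp*, *Crp* and *Pzp* lay at percentiles 9.54, 26.1 and 27.5 of mean signal, and *Cfb* at 40.9. Of 25 genes of interleukin 6 family signalling, 0 passed between the strains (limma, with 1 at ‘peak’ and 4 at ‘trough’ at an unadjusted p under 0.05), and 2 fell from ‘trough’ to ‘peak’ in BPH/2J, the receptor subunit gene *Cntfr* (-0.46) and *Ptpn11* (-0.31). In BPN/3J 7 fell and 1 rose, 32% against 25.3% of all probesets. *Bcl3* (-0.64), the ligand gene *Clcf1* (-0.60) and *Cntfr* (-0.44) were among the 7, and *Socs2*, an inhibitor of the same family as *Socs3*, rose (0.61). Of 26 genes of interleukin 1 and NF-kB signalling, 0 passed between the strains (limma, with 1 at an unadjusted p under 0.05 at either time), while *Il18* rose and *Irak1* fell in both strains. *Il18* differed by 0.45 in BPH/2J and 0.73 in BPN/3J, and *Irak1* by -0.23 and -0.21. In BPN/3J 6 others fell, among them the chemokine gene *Ccl2* (-0.52), the adhesion molecule gene *Icam1* (-0.47) and *Tnfaip3* (-0.39), the inhibitor that NF-kB induces. *Ccl2* had a low signal, at percentile 26.1 of mean signal. The calls made up 7.69% of this list in BPH/2J, and 30.8% in BPN/3J, against 8.64% and 25.3% of all probesets. Over the 101 genes of the 4 lists together, 5.94% were called in BPH/2J, and 24.8% in BPN/3J. Without the 2 least correlated arrays the calls over all pathway and marker lists between the times in BPN/3J were 22 in place of 43.

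For *d* 0 genes of these 4 lists passed (limma, with 0 of the reactive astrocyte genes, 4 of the acute phase genes, 3 of the interleukin 6 family and 0 of the interleukin 1 and NF-kB genes at an unadjusted p under 0.05). Of 15 markers of resting astrocytes, *Glul*, the gene of glutamine synthetase, was 0.28 higher in BPH/2J at ‘peak’ and rose by 0.27 from ‘trough’ to ‘peak’ in BPH/2J. The transporter genes *Slc4a4* (-0.52) and *Slc1a2* (-0.32) and the transcription factor gene *Sox9* (-0.32) fell between the same groups. *Slc4a4* also fell in BPN/3J (-0.32), and no other marker of this list passed there.

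Cell type markers differed between the same groups as *Lcn2* and *C4b* in BPH/2J. Of all 105 markers 12 fell and 4 rose, or 15.2%, against 8.64% of all probesets called and 4.39% called lower. Of 9 mural cell markers 3 fell from ‘trough’ to ‘peak’, of 11 endothelial markers 3, of 10 meningeal and fibroblast markers 2 and of 13 microglia markers 1, while 1 microglia marker rose. The hypothalamic neuron genes *Hcrt* (1.29, limma adjusted p = 0.0409) and *Pmch* (0.86, adjusted p = 0.0104) also rose, 2 of 14 neuron markers, whose mean deviation lay between -0.14 and -0.11 at ‘trough’ and between -0.14 and 0.54 at ‘peak’. The mean deviation of the mural markers from their overall level lay between 0.28 and 0.47 at ‘trough’ and between -0.22 and 0.16 at ‘peak’. The endothelial markers ran from 0.14 to 0.23 and from -0.20 to 0.16, and the meningeal markers from 0.12 to 0.44 and from -0.51 to 0.55. Their part in the differences of *Lcn2* and *C4b* was not tested. Between the strains at ‘peak’, where *Serpina3n* differed, 1 of the 105 markers was lower in BPH/2J, the microglia gene *C1qc* (-0.54, limma adjusted p = 0.00257), and 3 were higher. These were *Glul*, the endothelial transporter gene *Slco1a4* (0.62, limma adjusted p = 0.00931) and the neuropeptide gene *Gal* (0.88, limma adjusted p = 0.0322), together 3.81% against 1.33% of all probesets. Of the choroid plexus markers 0 passed at ‘peak’, but all 7 were lower in BPH/2J (median -0.48). Of 10 meningeal and fibroblast markers 9 were lower and 1 higher (median -0.16), again without passing. Of 14 neuron markers 10 were higher and 4 lower (median 0.21). The part of these markers in the difference of *Serpina3n* was not tested. At ‘trough’ *Slco1a4* was the 1 marker that passed (1.30, limma adjusted p = 0.000469).

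Whether the genes move together between mice was examined after the mean of its group was taken from each value, so that differences between groups play no part. Over 18 mice the 45 pairs of genes had a median Pearson r of 0.15, beside 0.01 over all pairs of the 19937 genes. Of the 45 pairs 28 were positive, beside 51.2% of all pairs. A pair passed at a Benjamini-Hochberg adjusted p under 0.05 over 45 pairs, from 100000 permutations of the mice within their groups. This was met by 2 pairs, and 7 had an unadjusted permutation p under 0.05. The 45 values of r ran from -0.49 to 0.82.

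*Stat3* and *Cd44* moved together most closely (r = 0.82, rho = 0.79, permutation p = 0.00015 and 0.00018, adjusted p = 0.00675 and 0.0081), and 0.623% of all gene pairs had an r as high. Without the 2 mice farthest from the median of *Stat3* the r was 0.80. It was 0.71 in the 12 ‘peak’ mice and 0.92 in the 6 ‘trough’ mice. BPN/3J ‘trough’ mouse 1 and BPH/2J ‘peak’ mouse 9 were low in both genes. The pair passed in all 18 tests that left out 1 mouse. It did not pass after quantile normalization, in the ‘trough’ mice alone, without the 2 least correlated arrays (r = 0.79 over 16 mice) or without the 4 higher-numbered ‘peak’ mice (r = 0.88 over 14 mice).

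*C4b* and *Vim* were the other pair (r = 0.70, rho = 0.64, permutation p = 0.00176 and 0.0134, adjusted p = 0.0396 and 0.101), and 2.89% of all gene pairs had an r as high. Its r was 0.81 in the ‘peak’ mice and 0.65 in the ‘trough’ mice, and 0.61 without the 2 mice farthest from the median of *C4b*. The pair passed in 8 of the 18 tests that left out 1 mouse. It did not pass in the ‘peak’ mice alone, without the 4 higher-numbered ‘peak’ mice (r = 0.77) or without the 2 least correlated arrays (r = 0.71). In the ‘trough’ mice alone, where a pair could hardly pass, it did not pass either. *Gfap* and *Vim*, both of intermediate filaments, had r = 0.69 and rho = 0.72 (permutation p = 0.00372 and 0.00227, adjusted p = 0.0558 and 0.0511). *Gfap* and *Timp1* (r = 0.55) and *C4b* and *Gfap* (0.53) followed without passing. The r of *Vim* and *Timp1* was 0.63 and rested on 2 mice, being 0.30 without those farthest from the median of *Vim*.

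*Stat3* and its inhibitor *Socs3* had an r of -0.24 (permutation p = 0.36). The lowest r, -0.49, was that of *Serpina3n* and *Socs3* (rho = -0.65, permutation p = 0.0703 and 0.00985, adjusted p = 0.289 and 0.10). *Lcn2* and *Il1b* had the lowest mean r with the other 9 genes, -0.10 and -0.03, and *Vim* the highest, 0.35. Over all probesets with 1 gene symbol, *Slc16a1* (r = 0.90), *Adamts4* (0.87), *Fcgr2b* (0.87), *Anxa3* (0.86) and *Efemp1* (0.85) followed the mean of the 10 standardized genes most closely in the 18 mice.

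**Figure D3:**
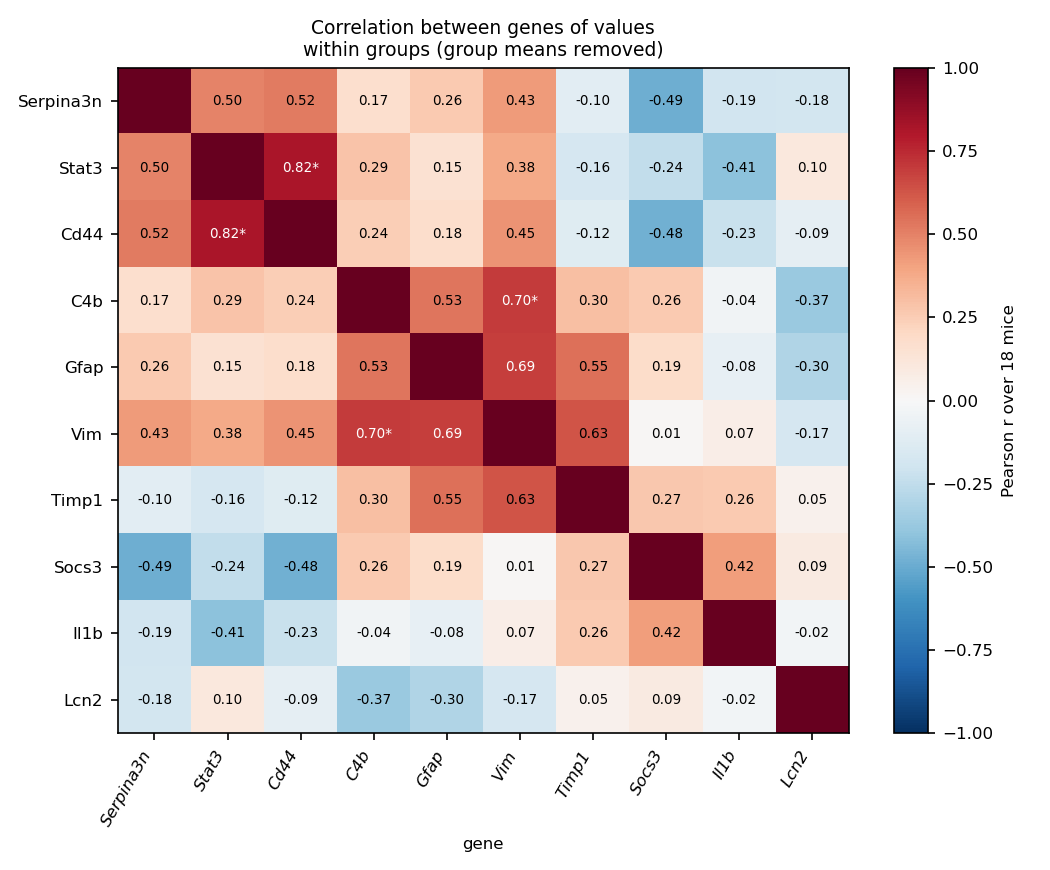
Pearson r between the 10 genes over 18 mice after removal of group means (colour from -1 to 1), with an asterisk for an adjusted p under 0.05 over 45 pairs. *Stat3* with *Cd44* (0.82) and *C4b* with *Vim* (0.70) carry the asterisks, and *Socs3*, *Il1b* and *Lcn2* show r of -0.49 to 0.42 with all other genes.

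The same deviations were set against the median signal of each array, which carries differences between arrays in all probesets. *Serpina3n* followed it inversely (r = -0.85, rho = -0.87, permutation p = 0.00047 and 0.0001, adjusted p over 10 genes 0.0047 for r). An r of this size in either direction was found for 1.35% of genes, and the r was -0.83 without the 2 mice farthest from the median. *Socs3* (0.65), *Stat3* (-0.62) and *Cd44* (-0.55) had adjusted permutation p of 0.0558, 0.0558 and 0.0695. *Stat3* and *Cd44* thus shared a negative r with the array median, and its part in their joint movement was not tested. The array medians of the ‘peak’ groups overlapped, at 6.17 to 6.32 in BPH/2J and 6.20 to 6.37 in BPN/3J. With centring the strain difference of *Serpina3n* was -1.02 at ‘peak’ (limma adjusted p = 0.00206) and, without passing, -0.84 at ‘trough’. Centring subtracts the array median from each value and cannot remove an inverse relation to it. The part of the array median in the strain difference was not tested.

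**Figure D4:**
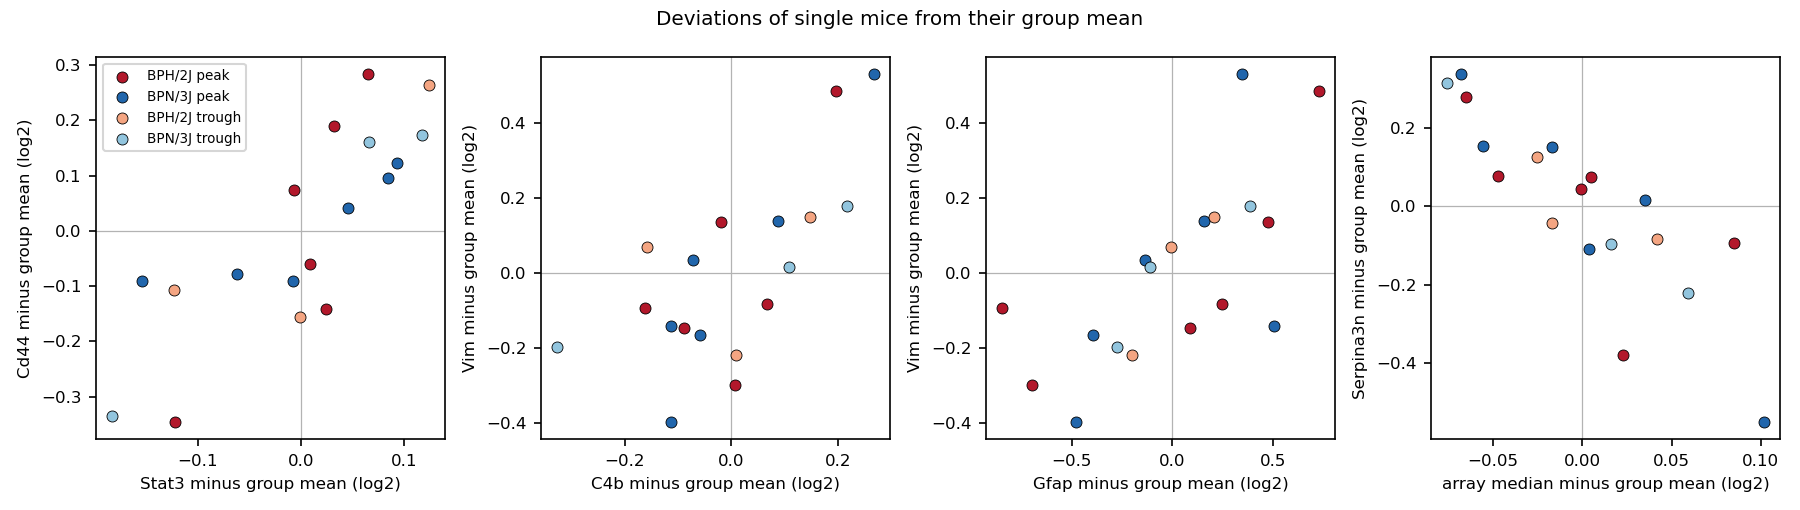
Deviation of each of the 18 mice from its group mean (log2) for *Stat3* and *Cd44*, *C4b* and *Vim*, *Gfap* and *Vim*, and for *Serpina3n* against the median of the array, with colours for the 4 groups. The r values are 0.82, 0.70, 0.69 and -0.85.

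Each gene was also set against the mean of each pathway and marker list, in 140 relations adjusted together. *Vim* followed the brain endothelial markers (r = 0.87, rho = 0.73, permutation p = 6e-05 and 0.00267, adjusted p = 0.0084), the meningeal and fibroblast markers (r = 0.86, adjusted permutation p = 0.0217) and the other reactive astrocyte genes (r = 0.81, adjusted permutation p = 0.0217). Without the 2 mice farthest from the median of the list these were 0.77, 0.64 and 0.68. *Gfap* followed the oligodendrocyte markers (r = 0.81, rho = 0.80, adjusted permutation p = 0.0217), as did *Timp1* (r = 0.74, rho = 0.83, adjusted permutation p = 0.0217). *Gfap* had an r of 0.36 with the other reactive astrocyte genes and 0.35 with the resting astrocyte markers.

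*Socs3* followed the other acute phase genes (r = 0.79, rho = 0.68, adjusted permutation p = 0.0217), and its r with the neutrophil and monocyte markers was 0.74 (adjusted permutation p = 0.065). The acute phase list includes genes of low signal, such as *Hamp*, *Saa1* and *Orm3* at percentiles 9.54, 10.1 and 15.2, beside *Mt1* at 98.6. *Socs3* also had an r of 0.65 with the array median, whose part in these relations was not tested. *Lcn2*, *Serpina3n*, *Stat3*, *C4b*, *Cd44* and *Il1b* passed with no list. The r of *Serpina3n* was 0.64 with the neuron markers, 0.62 with the tanycyte and ependymal markers and 0.48 with the choroid plexus markers. With the other acute phase genes it was -0.55. *Lcn2* had an r of 0.26 with the neutrophil and monocyte markers and 0.00 with the resting astrocyte markers and the endothelial markers. The choroid plexus markers, which come from tissue beside the hypothalamus, varied most between mice, with mean deviations of -1.12 to 1.62. Their r was 0.70 with *Vim* and -0.50 with *Lcn2*, and neither passed.

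**Figure D5:**
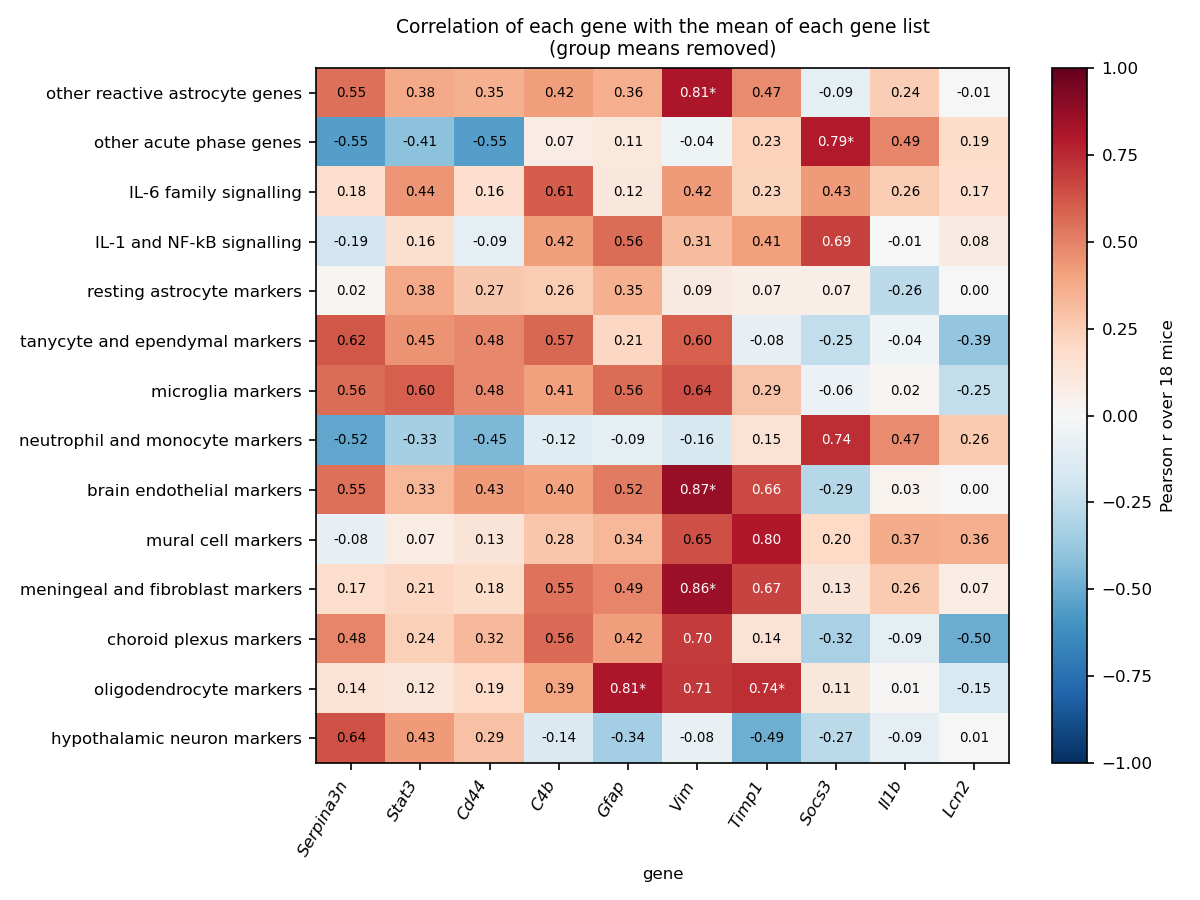
Pearson r over 18 mice, after removal of group means, between each of the 10 genes (columns) and the mean of each pathway or marker list (rows), with an asterisk for an adjusted p under 0.05 over 140 relations. The asterisks fall on *Vim* (0.87, 0.86 and 0.81), *Gfap* (0.81), *Timp1* (0.74) and *Socs3* (0.79).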

How the data were processed

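The hypothalamus of each of 18 male mice was profiled on 1 Affymetrix Mouse Gene 1.0 ST array. RMA normalization was made by the authors, and the deposited log2 values were used as they stand. Its version is not given in the sources. Groups were taken from the sample titles. All 34760 probesets had values in all arrays (0 missing), and 21640 carry 1 gene symbol, 1321 several, and 11799 are not listed. The number of arrays limits the precision. The brightest probeset stood for a gene with several.

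Groups were compared by limma 3.58.1 (R 4.3.3), with 1 mean per group and 14 residual and 2.94 prior degrees of freedom, and with Benjamini-Hochberg adjustment over all probesets. Correlations, permutation tests and figures were made in Python 3.11.15 with numpy 2.4.6, pandas 2.3.3, scipy 1.17.1 and matplotlib 3.10.9. Correlations across mice used values with group means removed, and permutations within groups. The deviation of a list in a mouse is the mean, over its genes, of the signal minus the gene's mean over all arrays. For correlations each gene of a list was first scaled to the same spread. The 10 genes and the lists were chosen with earlier results of these data known. All 10 genes are named, with the genes of each list that had the largest differences among those that passed (up to 4 per comparison), the 5 genes that followed the mean of the 10 most closely, and C4a and the Serpina3 relatives as similar sequences.

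On simulated data with 200 of 34760 probesets changed by 1 log2 unit, limma recovered 88.5% between the strains at ‘peak’, 75.5% at ‘trough’, 78% between the times in BPH/2J, 77% in BPN/3J and 53.5% for *d*. Alternatives were quantile normalization, median centring, leaving out probesets under the 40th percentile, a trend and robust prior, array weights, the mean of a gene's probesets, fits of only the 2 groups compared, exact permutation tests, a block for the mouse number, leaving out each array, and leaving out the 4 higher-numbered ‘peak’ mice. Leaving out the 2 least correlated arrays was added after the data were seen. Mouse numbers in the titles were checked for pairing of the strains, and the main fit did not treat them as pairs.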

Additional observations from a re-analysis of the deposited data

Results flagged for a closer look

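The 10 genes were examined in the 2 ‘peak’ groups of 6 mice, 20 groups of values in all, for a mouse that stood apart from the others. The *Il1b* signal of BPH/2J ‘peak’ mouse 7 was 4.92, and the nearest mouse of the group had 5.28. This gap was 0.708 of the range of the group, above the limit of 0.625 for 6 samples. Chance alone gives about 1 such group in 20. Without this mouse the difference of *Il1b* between the times in BPN/3J, whose means do not include it, had a limma adjusted p of 0.0457 in place of 0.0634.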

How the results depend on the processing

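The 29 differences given for single genes were recomputed under the alternative settings, most of which share nearly all mice. Of the 781 values this gave, 0 were reversed in direction and 735 stayed on the same side of the threshold. The call was lost in 25 and gained in 21. The count of the 10 genes that passed moved as follows. Between the strains at ‘peak’ it was 4 by unadjusted exact permutation tests in place of 1. At ‘trough’ it was 0 with median centring, 0 with only the 2 groups compared, and 3 with array weights in place of 1, and exact tests of 3 against 3 mice could not reach the threshold. Between the times in BPH/2J it was 1 with median centring, 5 with array weights and 4 by exact permutation tests in place of 2. In BPN/3J it was 6 with array weights, 2 with the mean of a gene's probesets, 2 by exact permutation tests, 2 without the 4 higher-numbered ‘peak’ mice and 0 without the 2 least correlated arrays in place of 1. Array weights gave BPN/3J ‘trough’ mouse 3 a weight of 9.44. They also raised the calls among the 206 listed genes, to 66 in place of 22 in BPH/2J and 106 in place of 43 in BPN/3J. The exact tests were unadjusted. The share of all probesets passing in the same settings is not given here, so the higher counts are no result about the 10 genes. With 1 mouse left out the counts of the 10 genes ran from 0 to 1 at ‘trough’, from 1 to 3 in BPH/2J and from 0 to 3 in BPN/3J. The number of pairs that moved together, 2 of 45, was 1 with Spearman's rho, 3 with quantile normalization, 5 with median centring and 1 in ‘peak’ mice. Quantile normalization kept *C4b* with *Vim*, lost *Stat3* with *Cd44*, and added *Gfap* with *Vim* and *Vim* with *Timp1*. The number was 0 without the 4 higher-numbered ‘peak’ mice, 0 without the 2 least correlated arrays, and 1 to 4 with 1 mouse left out. In ‘trough’ mice it was 0, where the few permutations hardly allow a pair to pass. The cause of these shifts was not tested.

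Over the 206 listed genes of pathways and cell types, 5 passed between the strains at ‘peak’, 1 at ‘trough’, 22 between the times in BPH/2J, 43 in BPN/3J and 0 for *d*. With array weights these were 49 at ‘trough’, 66 in BPH/2J, 106 in BPN/3J and 5 for *d*. With median centring they were 10 in BPH/2J and 27 in BPN/3J. With only the 2 groups compared they were 2 at ‘peak’ and 19 in BPN/3J. Without the 4 higher-numbered mice they were 4 at ‘trough’, 43 in BPH/2J and 69 in BPN/3J, and without the 2 least correlated arrays 3 at ‘peak’ and 22 in BPN/3J. With 1 mouse left out they ran from 2 to 5 at ‘peak’, from 6 to 27 in BPH/2J and from 15 to 50 in BPN/3J.

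The numbers shared by titles were not treated as a pairing: residual correlations of arrays with the same number ran from -0.30 to 0.19. Arrays with different numbers were not compared, so these values cannot settle whether the numbers pair mice. With a replicate block, which leaves 4 residual degrees of freedom, *Serpina3n* still passed at ‘peak’ (limma adjusted p = 0.0245), 0 of the 10 genes passed at ‘trough’, and 0 of the listed genes passed at either time.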
